A study of Mus musculus with 75 samples.

Results

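The 8 genes described here encode activin subunits, follistatins and activin receptors. They were taken from the count table by their symbols in the Ensembl release 96 annotation: Inhba, Inhbb, Fst, Fstl3, Fstl1, Acvr1b, Acvr2a and Acvr2b, 8 of the 55536 genes in the table, whose coordinates are given on GRCm38. Their transcripts were followed in the lungs of control mice and over 6 weekly time points after bleomycin (BLEO), a cytotoxic drug whose instillation damages alveolar cells and models idiopathic pulmonary fibrosis (IPF). The rule for the members uses their symbols and no measured value, although the gene family was picked with earlier results of these data known.

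Activins belong to the transforming growth factor β (TGFβ) superfamily and are dimers of inhibin β subunits, with activin A built from the product of Inhba and activin B from that of Inhbb. They bind a type II receptor, ACVR2A or ACVR2B, which recruits and phosphorylates the type I receptor ACVR1B (also called ALK4), and this kinase in turn phosphorylates SMAD2 and SMAD3, the same transducers that TGFβ uses through its own receptor ALK5. Follistatin (Fst) and follistatin-like 3 (Fstl3) are secreted proteins that wrap around activins and keep them from their receptors, whereas Fstl1 shares a follistatin-like domain but is not chiefly an activin trap. In the lung, activin A is known as a product of injured and inflamed tissue that acts on fibroblasts.

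RNA came from the inferior lobe of 75 male C57BL/6JRj mice, 1 library per mouse. The stated age of 12 to 14 weeks is that at instillation, so BLEO-IPF mice of later days were older when sampled. Age and time after BLEO therefore cannot be told apart. No sampling day is recorded for CTRL. BLEO-IPF mice had received 1 intratracheal instillation of BLEO, and only those that had lost 5 to 17% of body weight by day 6 were assigned to a time point. Mice with a larger or smaller weight loss by that day are therefore not represented. There were 10 controls (CTRL), and BLEO-IPF groups of 10 mice (day 7), 12 mice (each of days 14, 21, 28 and 35) and 7 mice (day 42). The sample labels name saline as the treatment of CTRL, whereas the accompanying protocol calls these mice untreated. Every comparison with CTRL used the same 10 mice.

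Total counts ranged from 9240291 to 14665247 per library, with a median of 10677163. Of 375 pairs of mice within groups, none agreed within sampling noise, the lowest chi-square per degree of freedom being 4.11. Genes that mark lung tissue (Sftpc, Sftpb, Ager, Scgb1a1 and Pecam1) were detected in every group, at summed levels of 36501 to 46769 CPM (read counts scaled to the library total after normalisation) in CTRL and 8048 to 34213 CPM on day 14. The library of day 28 replicate 10 stood apart, with 1212 CPM of skeletal muscle markers (Ckm, Acta1, Myh1 and Myh4), which summed to at most 10.2 CPM in any library of another group, and 2010 CPM of cardiac muscle markers. Leaving it out changed no call of a member on day 28. Day 14 replicate 8 also stood apart, with neutrophil markers at 438 CPM against a group median of 57.6 CPM. With it left out, 7 members were called on day 14. Fold changes without it are given below for Inhbb only. It was also the highest day 14 mouse for Fst and Acvr2a. Without it the day 14 mean of Fst fell from 81.6 to 67.99 CPM, and that of Acvr2a from 56.5 to 53.98 CPM. The other day 14 values of these 2 members include it.

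RefSeq promoter windows on GRCm38.p6 were found for 7 of the 8 members, all but Fst. The 250 bases before the annotated start are shown for both ligands, which differ in base composition, and for Fstl3, which shares a TATA motif with Inhba alone among the 7. Capitals mark TATAAA or, in Fstl3, its reverse complement.
Inhba, chr13:16011601-16011850, plus strand: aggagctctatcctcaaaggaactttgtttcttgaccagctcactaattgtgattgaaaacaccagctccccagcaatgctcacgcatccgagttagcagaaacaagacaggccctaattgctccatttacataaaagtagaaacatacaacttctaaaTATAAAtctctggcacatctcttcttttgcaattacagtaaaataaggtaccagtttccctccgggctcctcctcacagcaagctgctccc
Inhbb, chr1:119422249-119422498, minus strand: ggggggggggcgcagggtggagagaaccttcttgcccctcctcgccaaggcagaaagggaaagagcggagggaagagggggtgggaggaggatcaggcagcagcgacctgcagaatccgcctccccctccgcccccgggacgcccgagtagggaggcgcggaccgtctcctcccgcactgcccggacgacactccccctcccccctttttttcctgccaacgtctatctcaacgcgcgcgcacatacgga
Fstl3, chr10:79777024-79777273, plus strand: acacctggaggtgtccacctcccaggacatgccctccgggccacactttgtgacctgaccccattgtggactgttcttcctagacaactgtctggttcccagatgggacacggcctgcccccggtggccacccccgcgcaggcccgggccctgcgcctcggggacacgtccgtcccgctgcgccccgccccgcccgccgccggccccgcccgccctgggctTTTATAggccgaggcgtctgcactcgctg
The Inhba window had 43.2% G and C and 3 CpG dinucleotides, against a median of 52.4% and 6 CpG over 32851 windows of the same length. The other 6 members had 68 to 82% and 16 to 49 CpG. For motifs, 4 strings were searched on both strands. TATAAA lay at position -91 in Inhba and -29 in Fstl3, counted from the start, and was held by 12.4% of all windows. AGAC, part of the SMAD box, was in all 7 member windows and in 82.9% of all windows. GTCTAGAC, which contains AGAC, was in 0 of 7 and in 0.17% of all, and the AP-1 motif TGACTCA was in 0 of 7 and in 4.46% of all. A match describes the letters only, and binding was not measured.

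The first question was which members differed from CTRL on each day. On day 7, 6 members were higher and 1 was lower by edgeR's quasi-likelihood test at an adjusted p under 0.05, where 24.8% of the 16221 genes tested were higher and 21.0% lower. On day 14 it was 5 higher and 2 lower, beside 32.4% and 29.9% of all genes, and on day 21 again 5 and 2, beside 28.3% and 25.8%. On day 28, 4 members were higher and 2 lower, beside 24.1% and 19.2% of all genes. On day 35, 3 were higher and 2 lower, beside 16.9% and 13.1%. On day 42, 1 was higher and 1 lower, beside 13.7% and 11.0%. All 8 members passed the filter on low counts, so none is missing from these counts. Their median log2FC was 0.69, 1.04, 0.56, 0.44, 0.23 and 0.27 on the 6 days in turn, beside medians between -0.00 and 0.02 over all genes tested. In bulk tissue, fewer cells of a type and less RNA per cell cannot be told apart.

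**Figure D1:**
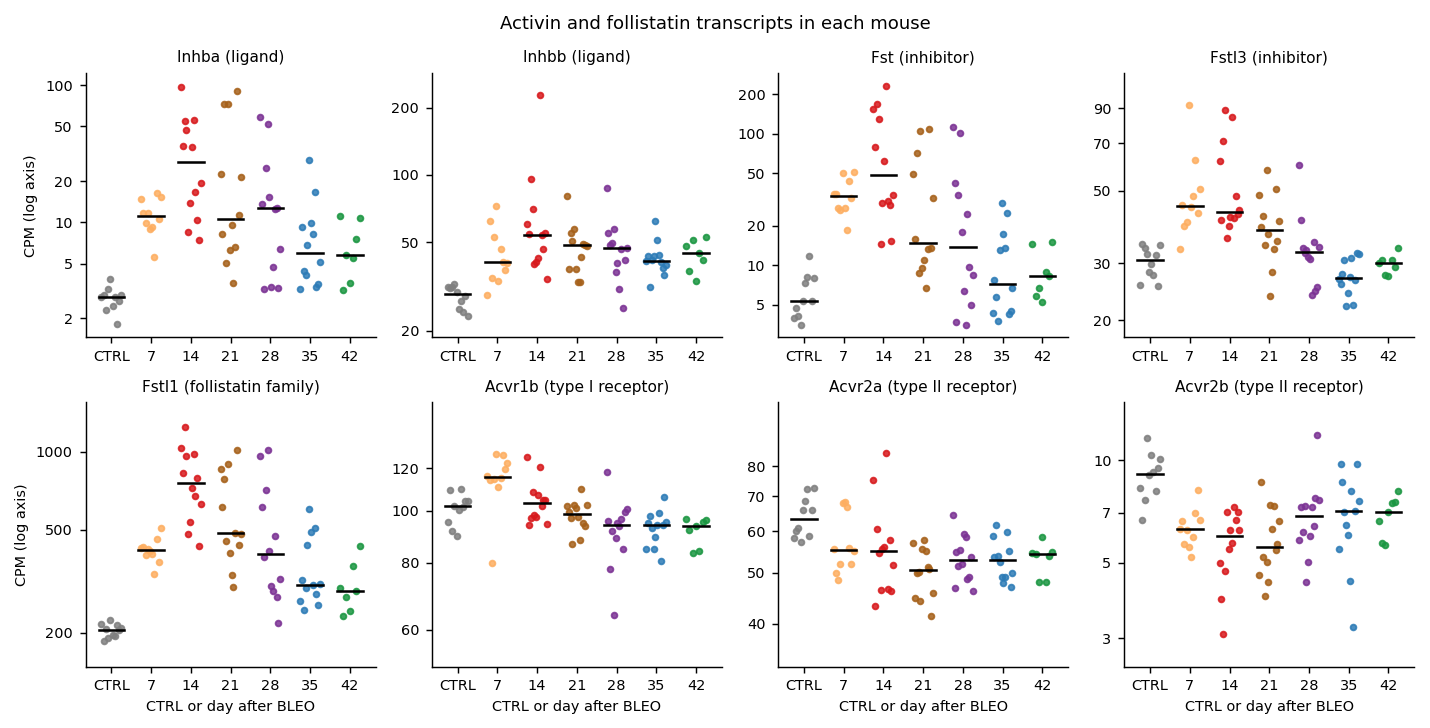
CPM on log axes (panels differ in range) of the 8 transcripts by group, with 1 point per mouse and a black line at the group median. Every mouse of days 7 and 14 lay above all CTRL mice for Inhba, Fst and Fstl1, and single mice reached 97.8 CPM of Inhba and 232 CPM of Fst on day 14.

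Inhba (ENSMUSG00000041324, chr13:16011851-16031621, plus strand), the βA subunit of activin A, was at 1.81 to 3.87 CPM in CTRL with a median of 2.87 (19 to 57 counts per library). The lowest, median and highest mouse held 5.57, 11.1 and 16.3 CPM on day 7, and 7.38, 27.5 and 97.8 CPM on day 14. All mice of both days stood above the highest CTRL mouse. The same values were 3.59, 10.5 and 90.1 CPM on day 21 and 3.27, 12.6 and 58.9 CPM on day 28. They were 3.27, 6.00 and 28.4 CPM on day 35 and 3.19, 5.80 and 11.2 CPM on day 42. From day 21 the low end of each group overlapped CTRL, and 11 of 12, 9 of 12, 9 of 12 and 5 of 7 mice remained above the highest CTRL mouse on days 21, 28, 35 and 42.

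Against CTRL, Inhba rose by a log2FC of 2.01 ± 0.56 (SE) on day 7 (adjusted p = 0.00212) and of 3.57 ± 0.55 on day 14 (adjusted p = 6.58e-08). Days 21, 28 and 35 gave 3.28 ± 0.54, 2.63 ± 0.54 and 1.61 ± 0.54 (adjusted p of 6.5e-07, 6.44e-05 and 0.0187). On day 42 the log2FC of 1.26 ± 0.61 did not pass the test (adjusted p = 0.123). A fit of the CTRL and day 42 mice alone called it, with an adjusted p of 0.000147. Without day 35 replicate 6, the mouse at 28.4 CPM, the value on day 35 was 1.29 with an adjusted p of 0.0679. The spread between mice changed with time as well: the SD of log2 CPM was 0.27 in CTRL and, from day 7 to day 42 in turn, 0.45, 1.203, 1.60, 1.44, 0.96 and 0.68.

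Inhbb (ENSMUSG00000037035, chr1:119415465-119422248, minus strand), the βB subunit of activin B, moved less and its increase lasted through day 42. CTRL mice held 23.4 to 32.4 CPM with a median of 29.4. The lowest, median and highest mouse were at 28.98, 40.6 and 72.3 CPM on day 7, 34.04, 53.8 and 228 CPM on day 14, and 33.1, 48.5 and 80.4 CPM on day 21. On days 14, 21 and 42 all mice lay above the highest CTRL mouse. The values were 25.3, 46.9 and 87.6 CPM on day 28, 31.4, 41.3 and 61.8 CPM on day 35, and 33.3, 44.5 and 52.6 CPM on day 42. On days 7, 28 and 35, 9 of 10, 10 of 12 and 11 of 12 mice did so.

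The log2FC of Inhbb was 0.66 ± 0.21 (SE) on day 7 (adjusted p = 0.0069) and 1.26 ± 0.20 on day 14 (adjusted p = 1.47e-07). Days 21 and 28 gave 0.74 ± 0.20 and 0.72 ± 0.20 (adjusted p = 0.00116 and 0.00222), and days 35 and 42 gave 0.58 ± 0.20 and 0.62 ± 0.22 (adjusted p = 0.021 and 0.0336). It was the only member called higher on all 6 days. The day 14 value leaned on replicate 8, at 228 CPM, with the next mouse at 96.01 CPM. Without that mouse the log2FC was 0.92 (adjusted p = 7.13e-07) and the group mean fell from 68.4 ± 53.04 to 53.9 ± 17.4 CPM (SD, n = 12 and 11). The call on day 42 was lost on leaving out any of day 42 replicates 1, 3, 5 and 7 or CTRL replicate 10, with adjusted p from 0.053 to 0.0749, and with no filter on low counts (0.0562).

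Fst (ENSMUSG00000021765, chr13:114452290-114458951, minus strand), the secreted activin trap follistatin, had the largest log2FC of the 8 members on days 7 and 14. The day 14 order of Fst and Inhba was not firm. On leaving out single mice, the day 14 log2FC ranged from 3.46 to 3.87 for Fst and from 3.30 to 3.66 for Inhba. CTRL mice held 3.52 to 11.7 CPM with a median of 5.35. Among BLEO-IPF mice the lowest, median and highest were at 18.6, 33.6 and 50.9 CPM on day 7 and at 14.5, 48.3 and 232 CPM on day 14. On both days no BLEO-IPF mouse overlapped CTRL. The values were 6.69, 14.702 and 109.8 CPM on day 21, 3.53, 13.7 and 113.7 CPM on day 28 and 3.76, 7.23 and 29.7 CPM on day 35. On day 42 they were 5.23, 8.23 and 14.96 CPM. The groups then overlapped widely, with 8 of 12, 6 of 12, 5 of 12 and 2 of 7 mice above the highest CTRL mouse on days 21, 28, 35 and 42.

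The log2FC of Fst was 2.49 ± 0.56 (SE) on day 7 (adjusted p = 0.000194), 3.72 ± 0.56 on day 14 (adjusted p = 5.15e-08), 2.58 ± 0.55 on day 21 and 2.32 ± 0.55 on day 28 (adjusted p = 0.000415). On day 35 it was 0.87 ± 0.55 (adjusted p = 0.238) and on day 42 0.56 ± 0.63 (adjusted p = 0.547), and neither passed the test. A fit of the CTRL and day 35 mice alone called day 35, with an adjusted p of 0.0476. On day 28 the mice ranged over 32.2-fold from lowest to highest, the widest range of any member in any group, with an SD of log2 CPM of 1.73 against 0.54 in CTRL.

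Fstl3 (ENSMUSG00000020325, chr10:79777272-79782630, plus strand), the other secreted activin trap, was called higher on days 7, 14 and 21 and on no later day. CTRL mice held 25.5 to 34.3 CPM with a median of 30.7. The lowest, median and highest mouse were at 33.1, 44.9 and 92.1 CPM on day 7, 35.9, 43.1 and 88.7 CPM on day 14 and 23.8, 37.9 and 57.99 CPM on day 21. All 12 mice of day 14 and 9 of 10 of day 7 lay above the highest CTRL mouse. The values were 23.9, 32.5 and 60.05 CPM on day 28, 22.2, 27.05 and 32.2 CPM on day 35 and 27.5, 29.9 and 33.4 CPM on day 42. On days 35 and 42, 0 of 12 and 0 of 7 mice were above the highest CTRL mouse, and 3 of 12 on each of days 28 and 35 were below the lowest. The log2FC was 0.72 ± 0.15 (SE) on day 7 (adjusted p = 5.66e-05), 0.82 ± 0.14 on day 14 (adjusted p = 1.37e-06) and 0.37 ± 0.14 on day 21 (adjusted p = 0.0238). On days 28, 35 and 42 the values of 0.15 ± 0.14, -0.14 ± 0.14 and -0.02 ± 0.17 did not pass the test. The call on day 21 was lost without day 21 replicate 5 (adjusted p = 0.0735) or replicate 10 (0.0543). Fstl3 shares 1157 bases of exon with Prss57 on the opposite strand, which had 0.479% as many counts.

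Fstl1 (ENSMUSG00000022816, chr16:37776873-37836514, plus strand), a secreted glycoprotein of mesenchymal cells, had the smallest spread of log2 CPM in CTRL of the 8 members. CTRL mice held 184.9 to 223 CPM with a median of 206. Among BLEO-IPF mice the lowest, median and highest were at 336, 419 and 507 CPM on day 7, 434, 758 and 1244 CPM on day 14 and 300.3, 484 and 1019 CPM on day 21. No mouse of these days overlapped CTRL. The values were 219, 404 and 1015 CPM on day 28, 245, 307 and 602 CPM on day 35 and 232, 289 and 432 CPM on day 42. Of these mice only 1, on day 28, lay within the CTRL range.

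The log2FC of Fstl1 was 1.03 ± 0.21 (SE) on day 7 (adjusted p = 4.27e-05) and 1.93 ± 0.21 on day 14 (adjusted p = 2.91e-12). It then stood at 1.53 ± 0.21, 1.29 ± 0.20 and 0.82 ± 0.20 on days 21, 28 and 35 (adjusted p of 3.6e-09, 5.69e-07 and 0.00109). On day 42 it was 0.58 ± 0.23 with an adjusted p of 0.0523, although all 7 mice stood above the highest CTRL mouse. DESeq2 called day 42 with an adjusted p of 0.0477, and the fit of those 2 groups alone with one of 5.45e-05. It was also called without day 42 replicate 2 (0.0477) or replicate 4 (0.0487).

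**Figure D2:**
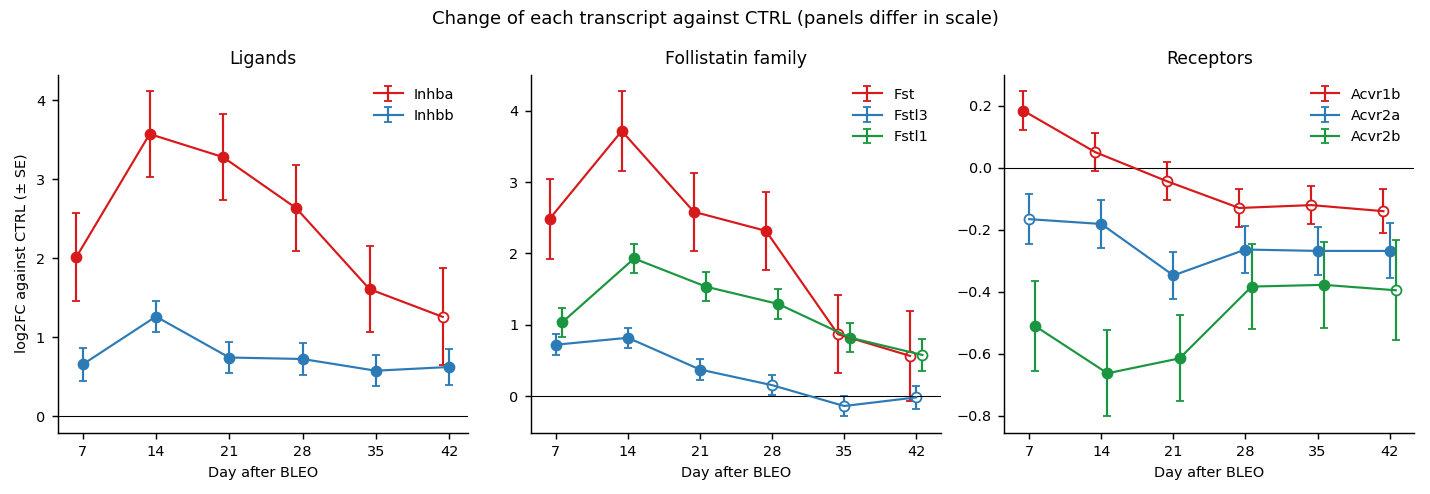
Log2FC against CTRL (y axis, panels differ in scale) by day after BLEO (x axis) for ligands, follistatin family and receptors. Points are fitted values, bars are SE, and filled points passed an adjusted p of 0.05. Inhba, Fst and Fstl1 were highest on day 14 at 3.57, 3.72 and 1.93, whereas the receptors stayed between -0.66 and 0.19.

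The receptors moved within a narrower range. Acvr1b (ENSMUSG00000000532, chr15:101174067-101213684, plus strand), the type I receptor that carries the activin signal to SMAD2 and SMAD3, lay at 89.7 to 110 CPM in CTRL with a median of 102. On day 7 the lowest, median and highest mouse were at 79.9, 115 and 127 CPM, and 9 of 10 mice were above the highest CTRL mouse while 1 was below the lowest. Its log2FC was 0.19 ± 0.06 (SE) on day 7 (adjusted p = 0.0134). From day 14 on the group medians were 103, 98.3, 94.2, 93.9 and 93.8 CPM, and every group overlapped CTRL. The log2FC of 0.05, -0.04, -0.13, -0.12 and -0.14 from day 14 to day 42 did not pass the test, with adjusted p of 0.477, 0.561, 0.0772, 0.129 and 0.136. Day 28 was called without day 28 replicate 1 (-0.17, adjusted p = 0.0194), replicate 7 (0.0492) or replicate 12 (0.0378), and without CTRL replicate 3 (0.0359) or replicate 5 (0.0308).

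Acvr2a (ENSMUSG00000052155, chr2:48814109-48903269, plus strand), the more abundant of the type II receptors, fell modestly. CTRL mice held 57.3 to 72.7 CPM with a median of 63.4. The lowest, median and highest mouse were at 48.4, 55.3 and 68.2 CPM on day 7, 43.2, 55.03 and 84.6 CPM on day 14 and 41.4, 50.6 and 57.9 CPM on day 21. All but 1 of the 12 mice of day 21 lay below the lowest CTRL mouse, and 8 of 12 did so on day 14, where 2 lay above the highest. On days 28, 35 and 42 the medians were 52.8, 53.01 and 54.4 CPM. On those days 9 of 12, 9 of 12 and 6 of 7 mice were below the lowest CTRL mouse.

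The log2FC of Acvr2a was -0.17 ± 0.08 (SE) on day 7 (adjusted p = 0.0812, not called), -0.18 ± 0.08 on day 14 (adjusted p = 0.0341) and -0.35 ± 0.08 on day 21 (adjusted p = 9.93e-05). On days 28, 35 and 42 it was -0.26, -0.27 and -0.27, each ± 0.08 to 0.09, with adjusted p of 0.00371, 0.00476 and 0.0202. Day 7 was called without day 7 replicate 5 (adjusted p = 0.0459), replicate 6 (0.0412) or replicate 7 (0.0371). The call on day 14 was lost without any of day 14 replicates 2, 5, 9, 11 and 12 or CTRL replicates 7 and 10 (adjusted p up to 0.0798), with no filter on low counts (0.0641) and in a fit of those 2 groups alone (0.0926), and that on day 42 without day 42 replicate 3 (0.0534) or with no filter (0.0522). Acvr2a overlaps Orc4 on the opposite strand over 446 of its 5686 exon bases, and Orc4 had 73.7% as many counts, so that their reads could be mixed if strand was not used in counting.

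Acvr2b (ENSMUSG00000061393, chr9:119402118-119434995, plus strand), the scarcer type II receptor, had the largest relative decrease of the receptors. CTRL mice held 6.68 to 11.6 CPM with a median of 9.11. Among BLEO-IPF mice the lowest, median and highest were at 5.20, 6.26 and 8.17 CPM on day 7, 3.09, 5.97 and 7.30 CPM on day 14 and 4.00, 5.55 and 8.64 CPM on day 21. On these days 8 of 10, 9 of 12 and 9 of 12 mice lay below the lowest CTRL mouse. On days 28, 35 and 42 the medians were 6.84, 7.07 and 7.03 CPM, and 6 of 12, 5 of 12 and 3 of 7 mice did. The log2FC was -0.51 ± 0.15 (SE) on day 7 (adjusted p = 0.0028), -0.66 ± 0.14 on day 14 (adjusted p = 3.31e-05), followed by -0.62 ± 0.14, -0.38 ± 0.14 and -0.38 ± 0.14 on days 21, 28 and 35 (adjusted p of 0.000142, 0.0198 and 0.0302). On day 42 the value of -0.40 ± 0.16 missed the threshold (adjusted p = 0.0606). It passed without CTRL replicate 2 (0.0372) or replicate 3 (0.0479). The call on day 35 was lost without day 35 replicate 7 or 9 or CTRL replicate 4 or 10, with adjusted p from 0.0523 to 0.0665.

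The second question was how the members changed between BLEO-IPF days. From day 7 to day 14, 3 of 8 members rose, beside 9.48% of all genes: Inhba by a log2FC of 1.56 ± 0.47 (SE, adjusted p = 0.0161), Fstl1 by 0.90 ± 0.20 (adjusted p = 0.00117) and Inhbb by 0.61 ± 0.19 (adjusted p = 0.0222). Without day 14 replicate 8 the increase of Inhbb was 0.26 with an adjusted p of 0.26, and without replicate 1 that of Inhba had an adjusted p of 0.0541. From day 14 to day 21, edgeR and DESeq2 each called 0 of 8 members, with 5 at an unadjusted p under 0.05, beside 1.03% of all genes called in either direction. The nearest to the threshold was Fstl3, at -0.45 ± 0.13 with an adjusted p of 0.0727. It was called when any of day 14 replicates 5, 6 and 11 or day 21 replicates 5 and 10 was left out. From day 21 to 28 both tools again called 0 of 8, with 0 at an unadjusted p under 0.05, beside 0.727% of all genes. From day 28 to 35 both called 0 of 8, with 4 at an unadjusted p under 0.05, beside 1.27% of all genes. From day 35 to 42 both called 0 of 8 members, with 0 at an unadjusted p under 0.05, beside 0% of all genes in both tools (957 of 16221 at an unadjusted p under 0.05 in edgeR).

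Over the longer interval from day 14 to day 42, 6 of 8 members fell, beside 18.8% of all genes. Fst fell most, by a log2FC of -3.15 ± 0.63 (SE, adjusted p = 7.55e-05), followed by Inhba at -2.31 ± 0.57 (adjusted p = 0.00117), Fstl1 at -1.35 ± 0.23 (adjusted p = 6.41e-06) and Fstl3 at -0.84 ± 0.16 (adjusted p = 5.15e-05). Inhbb, at -0.64 ± 0.22 (adjusted p = 0.0189), lost its call without day 14 replicate 8 (-0.29, adjusted p = 0.186) or day 42 replicate 4 (adjusted p = 0.0506). Acvr1b, at -0.19 ± 0.07 (adjusted p = 0.024), lost it without day 42 replicate 3 (0.0604) or replicate 5 (0.0701). Acvr2a and Acvr2b, at -0.09 and 0.27, did not pass the test.

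Ordered by mean log2 CPM, day 14 was the highest group for Inhba, Inhbb, Fst, Fstl3 and Fstl1, day 7 for Acvr1b, and CTRL for Acvr2a and Acvr2b. For most neighbours in these orders the gap was smaller than the larger SD of the pair. The exceptions were the step down to CTRL for Inhba (from day 42, 1.12 against an SD of 0.68), Inhbb (from day 35, 0.56 against 0.24) and Fstl1 (from day 42, 0.55 against 0.32), and the step from CTRL to day 42 for Acvr2b (0.38 against 0.23).

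**Figure D3:**
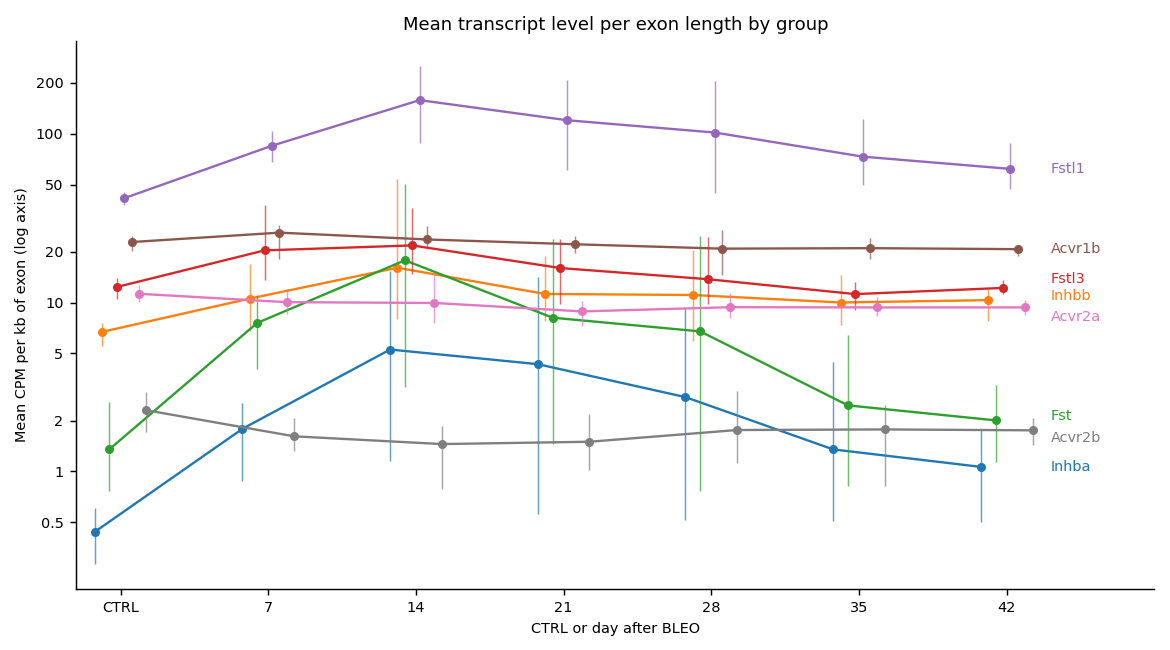
Mean CPM per kb of exon on a log axis (y) by group (x), with vertical lines from the lowest to the highest mouse. Fstl1 was the highest member in every group, at 41.5 in CTRL and 158 on day 14, and Inhba the lowest in CTRL at 0.438.

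Levels of different genes were compared only per kb of exon. In CTRL the mean levels were 41.5 ± 2.46 CPM per kb for Fstl1, 22.8 ± 1.53 for Acvr1b, 12.4 ± 1.38 for Fstl3, 11.3 ± 1.02 for Acvr2a, 6.70 ± 0.775 for Inhbb, 2.30 ± 0.366 for Acvr2b, 1.35 ± 0.559 for Fst and 0.438 ± 0.0863 for Inhba (SD, n = 10). On day 14 they were 158 ± 49.9 for Fstl1, 21.8 ± 7.60 for Fstl3, 17.8 ± 15.7 for Fst, 16.1 ± 12.5 for Inhbb and 5.27 ± 4.22 for Inhba (SD, n = 12). These day 14 means include replicate 8, the highest mouse of that day for Fst and Inhbb. Fst was thus among the scarcest of the family in CTRL and close to Fstl3 and Inhbb on day 14, with overlapping ranges. The ratio of Inhba to Fst per kb had a median of 0.382 in CTRL and, from day 7 to day 42 in turn, of 0.243, 0.34, 0.472, 0.503, 0.554 and 0.514. In no mouse did it reach 1, the highest being 0.964 on day 28. The ratio of Inhba to Inhbb per kb had a median of 0.0641 in CTRL and 0.303 on day 14, with highest mice at 1.08 on day 14 and 1.23 on day 21. Among the type II receptors, the median of Acvr2a over Acvr2b was 5.00 in CTRL and 6.61 on day 14. These ratios are descriptions, and their ranges overlapped between neighbouring days.

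A further question was whether mice of the same day with more ligand transcript also held more inhibitor transcript. Log2 CPM was centred on each group's mean and 7 pairs of members were correlated over the 75 mice. All values of a mouse come from 1 library, so its depth and cell composition are shared by both members of a pair. For Inhba and Fst, Pearson's r was 0.919 and Spearman's rho 0.906, both with a two-sided permutation p of 1e-05, the smallest that 100000 permutations within groups can give (adjusted p = 1.4e-05 over 7 pairs). Without the 2 mice farthest from the median of Inhba r was 0.913, and in BLEO-IPF mice alone 0.943. Within groups it was 0.674 on day 7 and, over the later days in turn, 0.956, 0.976, 0.947, 0.94 and 0.933, but -0.505 in CTRL, where libraries held 19 to 57 counts of Inhba and 38 to 123 of Fst. The mice with most Inhba and most Fst were the same on days 21, 28 and 35, but not in CTRL or on days 7, 14 and 42.

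**Figure D4:**
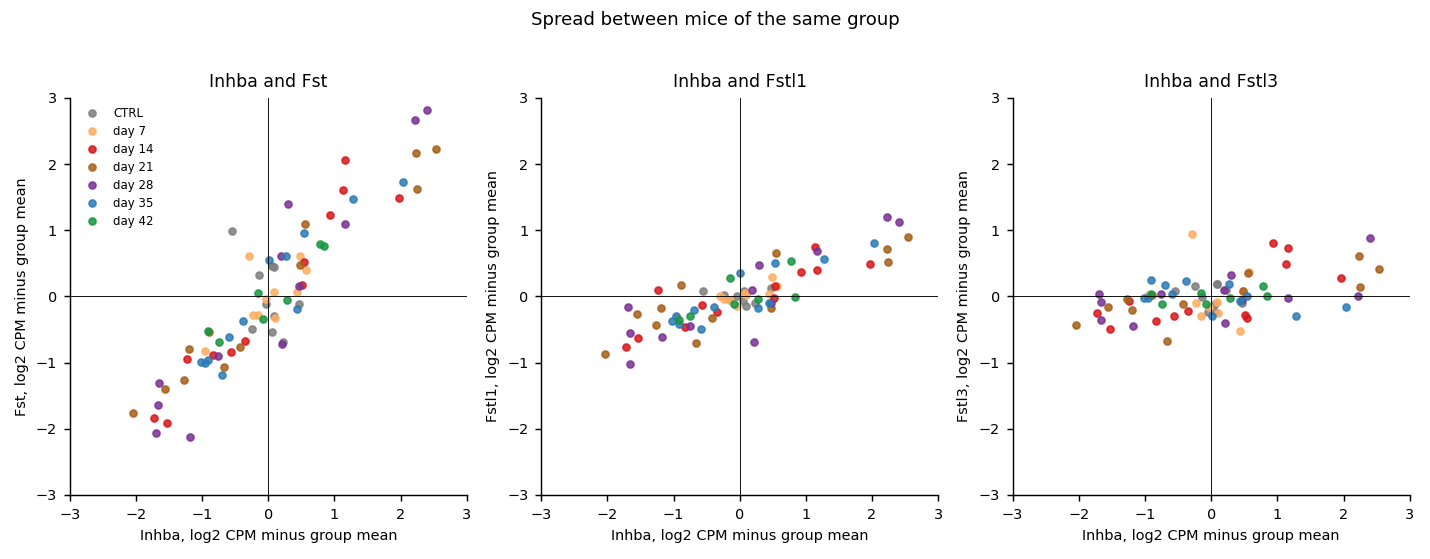
Deviation from the group mean in log2 CPM of Fst, Fstl1 and Fstl3 (y axes) against that of Inhba (x axes), with 1 point per mouse colored by group. Points of Fst lie close to a line (r = 0.919), those of Fstl1 on a flatter one (r = 0.85), and those of Fstl3 scatter (r = 0.455).

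The relation was close for Inhba and Fstl1 too, with r of 0.85 and rho of 0.809, and r within BLEO-IPF groups from 0.71 on day 42 to 0.888 on day 35, but -0.0412 in CTRL. For Inhba and Fstl3 r was 0.455 (permutation p = 0.00028, adjusted p = 0.00028) and rho 0.391 (permutation p = 0.0011), but the sign differed between groups, from -0.552 on day 35 to 0.769 on day 21. Inhbb followed Fstl3 with r of 0.675 and rho of 0.558, from -0.345 on day 35 to 0.9 on day 28. It followed Fstl1 with r of 0.589 and rho of 0.6, from -0.186 in CTRL and 0.0057 on day 7 to 0.799 on day 35. With Fst it had r of 0.584 and rho of 0.55, from -0.911 in CTRL to 0.736 on day 42. The 2 ligands themselves had r of 0.48 and rho of 0.531, with -0.268 on day 7 and 0.785 on day 42. The adjusted permutation p of these 6 pairs was at most 0.0011. Without the 2 farthest mice r ranged from 0.42 for Inhba and Fstl3 to 0.839 for Inhba and Fstl1.

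Of 13738 genes ranked by their correlation with a member over the same centred values, Fst stood nearest to Inhba, ahead of Has2 (r = 0.917), a hyaluronan synthase, and Dpy19l1 (0.911). Conversely, Inhba stood nearest to Fst, ahead of Pdgfc (0.916), a platelet-derived growth factor, and Uck2 (0.912), a uridine-cytidine kinase. Nearest to Fstl1 were Col5a2 (0.958), a fibrillar collagen chain, C1qtnf6 (0.928) and Mmp14 (0.926), a membrane-bound matrix metalloproteinase. For Inhbb they were Sema4c (0.797), 1700017B05Rik (0.783) and Gm13889 (0.777), and for Fstl3 Gorasp2 (0.854), a Golgi stacking protein, Flot2 (0.836), a membrane raft protein, and Actr1b (0.833), a dynactin subunit. Among the receptors, the nearest genes were Ston1 (0.724), Ppfia1 (0.708) and Gak (0.705) for Acvr1b, Wasl (0.811), Epc2 (0.792) and Sec63 (0.776) for Acvr2a, and Unkl (0.69), Bahcc1 (0.672) and Plekhh1 (0.667) for Acvr2b. Acvr2b had negative correlations with Fstl1 (r = -0.459) and Fst (-0.402). These are descriptions over 75 mice, with no test.

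Levels of cell type markers also differed between groups, not all with the same course as the members. The summed level of 6 fibroblast markers (Col1a1, Col1a2, Pdgfra, Dcn, Lum and Mfap4) ranged from 1839 to 2299 CPM in CTRL. From day 7 to day 42 in turn, its ranges were 2987 to 4904, 4034 to 10870, 2662 to 11552, 2343 to 8971, 2185 to 5458 and 1741 to 2864 CPM. The test called 2, 5, 4, 3, 3 and 0 of the 6 higher than in CTRL on these days in turn. Of all genes tested, 24.8, 32.4, 28.3, 24.1, 16.9 and 13.7% were higher on the same days. The median log2FC of the 6 was 1.03 on day 14 and -0.17 on day 42. The mouse with most fibroblast markers was the one with most Inhba on days 14, 21 and 35, but not in CTRL or on days 7, 28 and 42. The 5 markers of monocyte-derived macrophages (Spp1, Arg1, C1qa, Trem2 and Ms4a7) summed to 65.2 to 159.9 CPM in CTRL, 1023 to 8418 on day 14 and 262 to 2871 on day 42. All 5 were higher on days 7 to 35, and 4 of 5 on day 42. The 4 markers of transitional epithelium (Krt8, Cldn4, Sfn and Krt19) were highest on day 7, at 499 to 1000 CPM against 287 to 402 CPM in CTRL, and 4 of 4 were called. No marker of these 3 lists was at 0 in any group. Their part in the members' changes was not tested.

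On day 14, 32.4% of all genes tested were higher than in CTRL and 29.9% lower. AT2 markers (4 of 5), endothelial markers (4 of 5), thymus markers (3 of 3 tested) and lung identity genes (4 of 5) were lower. Higher were 3 of 4 transitional epithelial and 4 of 5 myofibroblast markers. Near the share over all genes, 2 of 5 alveolar macrophage, 1 of 4 neutrophil, 1 of 4 mesothelial and 1 of 4 cardiac muscle markers were higher. The summed neutrophil markers had a median of 57.6 CPM, against 69.9 CPM in CTRL, and the highest mouse, replicate 8, held 438 CPM. AT1 markers were mixed, with 1 higher and 2 lower of 5, and 1 of 5 myofibroblast markers was lower. The 1 skeletal muscle and 1 brown fat marker tested did not pass the test. The part of these lists was not tested either.

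The third question was how the rest of the pathway stood. Of 47 other genes of activin and TGFβ signaling, 37 passed the filter on low counts. From day 7 to day 42 in turn, 12, 19, 15, 14, 12 and 10 of them were higher than in CTRL and 12, 11, 11, 9, 9 and 7 were lower. On the same days, 24.8, 32.4, 28.3, 24.1, 16.9 and 13.7% of all genes tested were higher and 21.0, 29.9, 25.8, 19.2, 13.1 and 11.0% were lower, so that the 11 of 37 lower on day 14 lay near the share over all genes. The list had a median log2FC of 0.29 on day 14 and of 0.04 on day 42, beside medians of 0.01 and 0.01 over all genes tested. The 7 genes chosen because they respond to SMAD2 and SMAD3 (Ccn2, Ltbp2, Timp1, Col1a1, Fn1, Tagln and Itgb6) were all higher on days 7, 14 and 21, and 6, 5 and 4 of them on days 28, 35 and 42, with a median log2FC of 2.17 on day 14. Col1a1 is also among the fibroblast markers. Of the 9 antagonists and co-receptors tested, 5, 5, 5, 3, 3 and 2 were lower and 0, 1, 0, 2, 1 and 0 higher from day 7 to day 42 in turn, and the others did not pass the test.

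**Figure D5:**
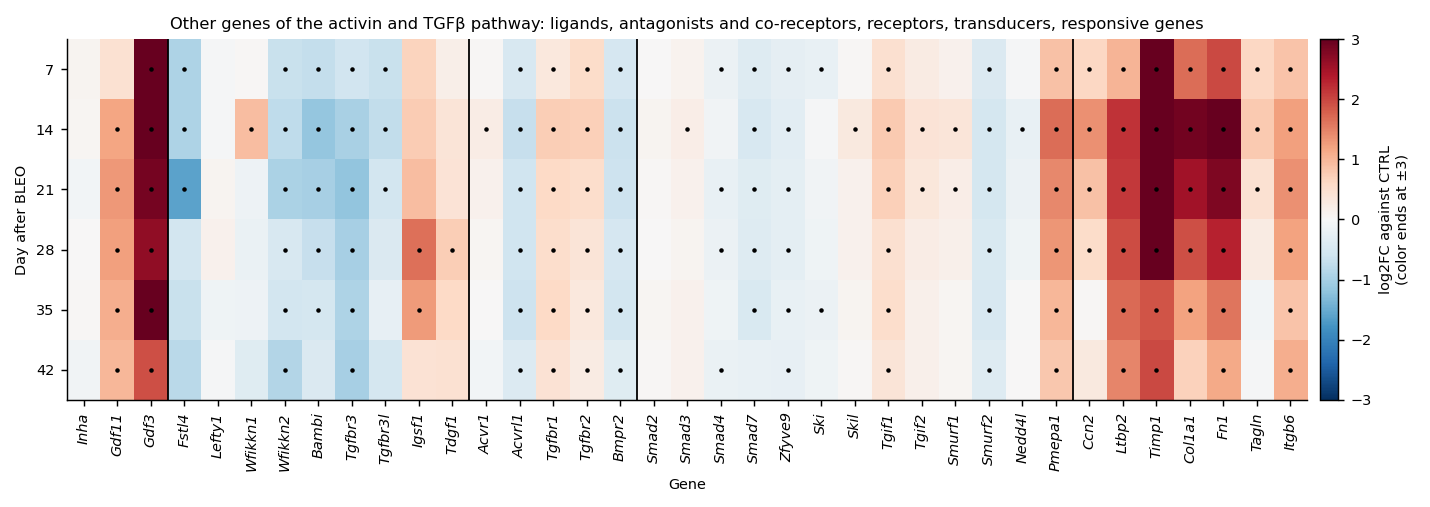
Log2FC against CTRL (color, ending at 3 and -3) of 37 pathway genes (x axis) by day after BLEO (y axis), with a dot where the adjusted p was under 0.05. Vertical lines separate ligands, antagonists and co-receptors, receptors, transducers with their regulators, and genes that respond to the pathway. On day 14, 19 genes were higher and 11 lower.

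On day 14 the largest increases in the list were those of Timp1, an inhibitor of matrix metalloproteinases (log2FC 4.78 ± 0.51, SE, adjusted p = 2.29e-12), Gdf3, a TGFβ superfamily ligand (4.07 ± 0.53, adjusted p = 1.17e-09), and Fn1, fibronectin (3.32 ± 0.36, adjusted p = 2.44e-12). The largest decreases that passed the test were those of Bambi, a decoy receptor without a kinase domain (-1.15 ± 0.16, adjusted p = 4.61e-09), Tgfbr3, the co-receptor betaglycan that inhibins also use (-0.98 ± 0.11, adjusted p = 5.35e-12), and Fstl4, a follistatin-like gene (-0.92 ± 0.35, adjusted p = 0.0172). On day 42, among the genes that passed the test, Timp1 (1.98 ± 0.54), Gdf3 (1.93 ± 0.70) and Ltbp2, a matrix protein of the latent TGFβ binding family (1.46 ± 0.28), were the furthest above CTRL, and Tgfbr3 (-1.003 ± 0.13), Wfikkn2, an antagonist of myostatin and GDF11 (-0.87 ± 0.20), and Acvrl1, the type I receptor ALK1 (-0.41 ± 0.13), the furthest below. Tgfbr1, which encodes ALK5, was higher on both days, by 0.74 ± 0.10 and 0.43 ± 0.12. Among the transducers, Smad3 was higher on day 14 (0.20 ± 0.07, adjusted p = 0.00914) and at 0.13 ± 0.08 on day 42, where it did not pass. Smad2 passed on neither day, at 0.07 and 0.04. The inhibitory Smad7 was lower on day 14 (-0.48 ± 0.09, adjusted p = 4.86e-06) and at -0.22 ± 0.11 on day 42 (adjusted p = 0.12).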

How the data were processed

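Single-end poly(A) RNA-seq libraries (NEBNext Ultra II Directional kit, Illumina NextSeq) were made from the inferior lobe of 75 mice. The authors deposited raw counts of reads per gene for the Ensembl 96 annotation of GRCm38, made after alignment with STAR 2.7.0f per the submitters' processing notes. The counting program and its strand setting are not given in the sources used here.

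Genes were filtered with filterByExpr, scaled by the trimmed mean of M-values (TMM) and tested with edgeR 4.0.16 (limma 3.58.1, R 4.3.3): a quasi-likelihood fit with 1 mean for each of the 7 groups, without covariates, and Benjamini-Hochberg adjustment over the 16221 genes tested in each comparison, with a threshold of 0.05. Depth was 9240291 to 14665247 counts per library. Log2 CPM used a prior count of 2. The CPM per kb used the union of exons (GENCODE M21, Ensembl 96). Correlations used 100000 two-sided permutations within groups (Python 3.11.15, numpy 2.4.6, scipy 1.17.1, pandas 2.3.3), and figures matplotlib 3.10.9. Promoter windows were RefSeq's on GRCm38.p6. No source says that the mice of a group came from separate litters or batches, so p-values measure the spread between these mice.

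All 8 members were described. Of the pathway list, the 3 called genes furthest up and the 3 furthest down on days 14 and 42 were named, with Tgfbr1, Smad2, Smad3 and Smad7. From that list, 1 gene is not reported here. For likeness, 3 genes per member were named among genes with a mean log2 CPM above 1. The members and lists were chosen with earlier results of these data known.

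Alternatives were DESeq2 1.42.0, library size or upper quartile scaling, no filter, fits of only the 2 groups compared, a minimum absolute log2FC of 0.5, the replicate number as a block, the longest transcript, and each of the 75 mice left out in turn. On simulated counts with a log2FC of 1, the fit recovered 171 of 193 changed genes for day 14 against CTRL (15728 genes) and 170 of 193 for day 42 against CTRL (15729 genes), with 13 and 9 unchanged genes called. Each simulation changed only 200 genes in 1 group and gave a gene the same dispersion in every group. It therefore does not cover smaller changes, changes in many genes or a spread that differs between groups.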

Additional observations from a re-analysis of the deposited data

Results flagged for a closer look

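In 24 sets of values, each from 1 member in a group of 10 or fewer mice, the highest and the lowest mouse were compared with the rest, which by chance marks about 1 set in 20. On day 7, Fstl3 stood at 92.1 CPM in replicate 5, with the next mouse at 62.1 CPM, a gap of 0.51 of the group's range. Also on day 7, Acvr1b stood at 79.9 CPM in replicate 3, with the next mouse at 111 CPM, a gap of 0.649 of the range. The calls of Fstl3 and Acvr1b on day 7 held without any 1 mouse.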

How the results depend on the processing

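Members called on day 42 (2 in edgeR) were the least stable count: 0 with no filter on low counts, 6 when only the 2 groups were fitted, 1 with a minimum absolute log2FC of 0.5, and 0 to 3 on leaving out single mice. The same minimum left 3 of 5 members on day 35 and 9 of 17 pathway genes on day 42. Between days 14 and 21, leaving out single mice gave 0 to 1 members. Fstl3 on day 42, at -0.02, ranged from -0.0551 to 0.005 on leaving out single mice and was above 0 without CTRL replicate 10 (0.005) or day 42 replicate 3 (0.0021). In 2-group fits Inhbb lost its calls from day 7 to 14 (adjusted p = 0.149) and from day 14 to 42 (0.128). For the other counts of members called against CTRL or between days, no alternative moved the count by over 1.5 times. Inhba over Fst per kb on day 14 had a geometric mean of 0.323, or 0.206 with the longest transcript. The cause of these changes was not tested.

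With a replicate block, 7, 7, 7, 7, 5 and 2 members were called on the 6 days, 4 from day 7 to 14 and 7 from day 14 to 42. The labels give only a number: 204 pairs of mice with the same number in different groups correlated with a median of 0.006 (-0.538 to 0.569), and 8 of 75 mice correlated best with their own number. Inhba had only 19 to 57 counts per library in CTRL, and the part of these low counts in the precision of its fold changes was not tested.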
